A study of Mus musculus with 2 samples.

Results

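The genes described here are 10 integrin subunits, Itga1, Itga2, Itga3, Itga5, Itga6, Itgav, Itgb1, Itgb4, Itgb5 and Itgb7, out of 54532 genes in the deposited count table. They were chosen by name with their ratios between the libraries already known, because Itga2 and Itgb7 were among the genes that differed most, so the ratios below are a description and have no test. The cells were CMT167R, a derivative of the mouse lung carcinoma line CMT167 that the labels call resistant to anti-PD1, an antibody against an inhibitory receptor of T cells. Messenger RNA was sequenced from 1 culture left untreated (CON) and from 1 culture given a compound labelled PKCi at 50 nM for 24 h, which asks how the compound alters expression in the resistant cells. The labels give neither the compound's identity nor how many clones the line comprises, and with 1 library per group no difference has a replicate check.

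Integrins are pairs of an alpha and a beta chain that span the plasma membrane and tie the extracellular matrix, or ligands on other cells, to the actin or keratin skeleton. The alpha chain largely sets the ligand: some chains carry an inserted domain that binds collagen, some recognise laminins of the basement membrane, and others read the RGD motif of fibronectin, vitronectin and osteopontin. A chain without a partner is usually held inside the cell, so the set of partner chains decides which receptors can reach the surface. In lung epithelium and its tumours, laminin receptors anchor cells to the basement membrane, and some RGD receptors also activate latent TGF-beta.

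Gene counts summed to 16090186 without PKCi and to 16071153 with it. Levels are given per 1000000 counts of the library (CPM). Each CPM thus equals 16.1 counts. For a gene with 0 counts the limit was taken as 3 counts, which is 0.186 CPM untreated or 0.187 CPM with PKCi. The upper end of the exact 95% Poisson interval is higher, at 0.229 CPM untreated. A gene was taken as measured if it reached 1 CPM in either library, which 12273 genes did. A fold is the plain ratio of CPM with an exact 95% binomial interval, called its counting interval, which covers counting error only, and a log2 ratio is that of CPM + 1, so it understates the difference of low genes. A gene is called past 2-fold where that log2 ratio is at least 1 upward or downward. Epithelial keratins were abundant (Krt8 at 933 and 1182 CPM, Krt18 at 643 and 765 CPM in the untreated and PKCi library), while the epithelial adhesion genes were low, Cdh1 at 2.92 and 3.36 CPM and Epcam at 3.48 and 6.29 CPM (1.81-fold, counting interval 1.29 to 2.55). Of 6 retina markers, checked because 1 protocol in the labels speaks of retinas, 4 had 0 counts in both libraries and the sum was 2 and 6 counts.

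Among the 10 subunits, 2 stood far above the rest in their ratio, the collagen receptor chain Itga2 and the leukocyte chain Itgb7, and the RGD chain Itgb5 was the lowest. Of 10 subunits 9 were measured, of which 2 lay past 2-fold upward, 0 past 2-fold downward and 7 in between. Of all measured genes, 6.53% lay past 2-fold upward and 5.13% downward, and since the same ratios led to the choice of the genes, nothing is read from their count. The median log2 ratio of the 9 was 0.24, against −0.01 over all 12273 genes. The summed level of the 10 subunits was 3138 CPM without and 3913 CPM with PKCi (1.25-fold, counting interval 1.23 to 1.26). Without Itga2 and Itgb7 it was 3134 and 3762 CPM (1.20-fold, counting interval 1.19 to 1.21), so most of the added integrin mRNA came from chains with small ratios. These are bulk libraries, in which a different share of cells with a transcript and a different amount per cell cannot be told apart.

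**Figure D1:**
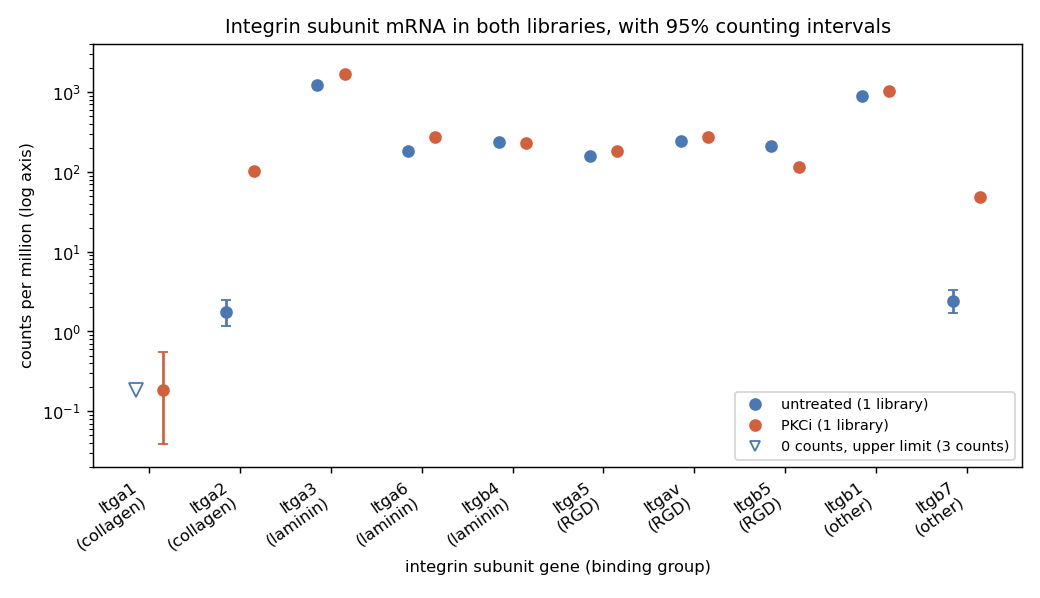
Level of each of the 10 integrin subunit genes in CPM (log axis) in the untreated library (blue) and the PKCi library (orange), grouped by ligand. Bars are exact 95% Poisson intervals for counting error, smaller than the points at high levels. The open triangle marks 0 counts, drawn at the limit of 3 counts (0.186 CPM) and not at a Poisson limit. Itga2 went from 1.74 to 102.7 CPM and Itgb7 from 2.42 to 47.97 CPM, while Itga1 had 0 and 3 counts.

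Of the collagen-binding chains, Itga2 was close to absent in untreated cells and well expressed with PKCi. Itga2 encodes the alpha chain that pairs with Itgb1 into the collagen I receptor of epithelia and platelets. It had 28 counts untreated (1.74 CPM) and 1650 with PKCi (102.7 CPM), 59.0-fold higher (counting interval 40.7 to 89.1). It ranked 1 of the 12273 measured genes by log2 ratio (5.24), a rank that depends on the pseudocount of 1 CPM. By plain fold Acod1 was higher, at 90.1 (8 and 720 counts, counting interval 45.5 to 209.5). Itga1, a close relative of Itga2 that prefers collagen IV, had 0 counts untreated and 3 with PKCi. Both values are at or under the limit, so no fold is given. Itga10, a cartilage collagen receptor chain, had 38 and 29 counts (0.764-fold, counting interval 0.455 to 1.27), and Itga11, which binds fibrillar collagen in fibroblasts, 1 and 0.

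To compare levels between genes, counts were divided by the listed gene length and scaled to a sum of 1000000 (TPM). On this scale Itga2 made up 34.3% of the mRNA of the 4 collagen-binding alpha chains in the untreated library and 97.6% in the PKCi library. Their summed level was 2.31 TPM untreated and 48.2 TPM with PKCi. For each Itga2 transcript there were 893 Itgb1 transcripts per length in untreated cells (counting interval 618 to 1345) and 17.4 with PKCi (counting interval 16.5 to 18.3). Itga2 thus remained a small part of the alpha chains that can pair with Itgb1, at 0.084% of their summed TPM untreated and 3.59% with PKCi. Platelet and megakaryocyte markers, listed because Itga2 is a platelet gene, were 1 of 7 measured, with a summed level of 2.67 CPM untreated and 4.23 CPM with PKCi. Within that list Gp6 and Gp1ba had 0 counts in both libraries, Pf4 had 6 and 8 counts, and the platelet integrin chain Itga2b 26 and 51 counts. The part of such cells in the Itga2 difference was not tested.

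**Figure D2:**
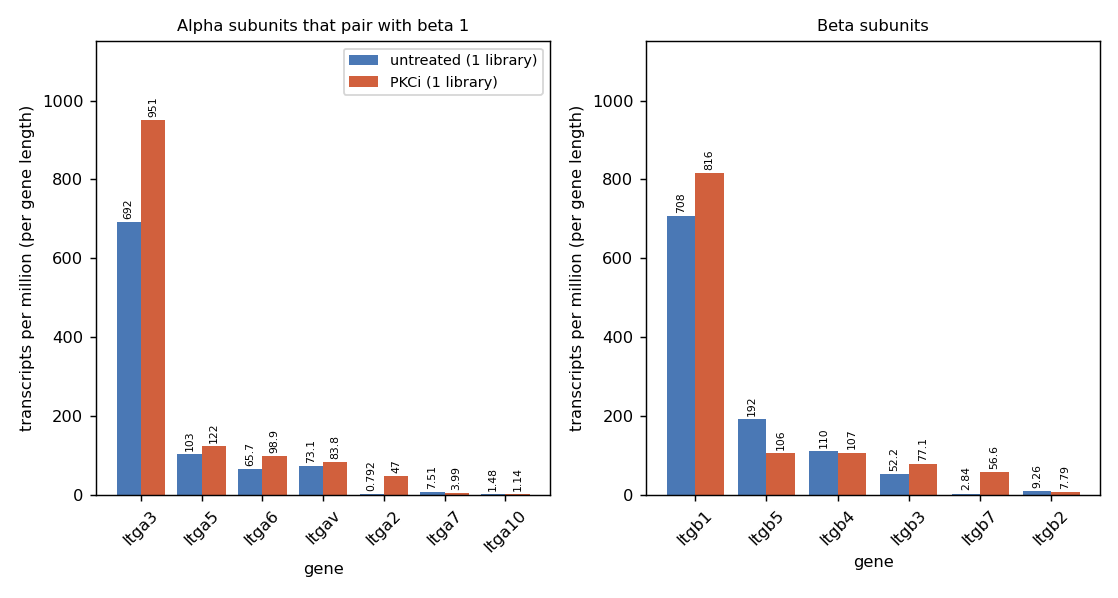
Length-scaled levels (TPM) of the alpha chains that can pair with Itgb1 (left) and of the beta chains (right) that reach 1 TPM in a library, untreated in blue and PKCi in orange, 1 library each, with the value above each bar. Itga3 and Itgb1 dominate both libraries at 692 and 708 TPM untreated and 951 and 816 TPM with PKCi, and Itga2 and Itgb7 go from 0.792 and 2.84 TPM to 47.01 and 56.6 TPM.

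Of 18 listed collagen genes 10 were measured, 0 past 2-fold upward and 1 downward, beside 6.53% and 5.13% of all measured genes. The median log2 ratio of the 10 was −0.43. The fibrillar collagen gene Col11a1 was at 9.01 CPM without and 2.49 CPM with PKCi (3.62-fold lower, counting interval 2.54 to 5.28). Col1a1 and Col5a1, also of fibrillar collagens, were at 8.89 and 10.75 CPM untreated and 4.36 and 5.17 CPM with PKCi. The basement membrane gene Col4a5 was at 46.2 and 25.1 CPM, and Col4a1, the most abundant collagen gene of the list, at 121.9 and 178.8 CPM. Fibroblast markers, which share Col1a1 and Col3a1 with this list, summed to 12.5 CPM untreated and 13.9 CPM with PKCi (1.11-fold, counting interval 0.914 to 1.35). Of these 5 markers 4 were measured, 3 above and 1 below a log2 ratio of 0, with a median of 0.89. Col1a1, with the most counts, was the lower one, while Pdgfra had 43 and 97 counts, Col3a1 14 and 38 and Dcn 1 and 17. Col3a1 and Dcn, at 0.870 and 0.062 CPM untreated, counted as measured only through the PKCi library, where they were higher. The part of such cells in the collagen values was not tested.

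The laminin-binding chains were the most abundant class, and 2 of its 3 chosen members were modestly higher in the PKCi library. Itga3, which pairs with Itgb1 into a receptor of epithelial laminins, had 19564 counts untreated (1216 CPM) and 26728 with PKCi (1663 CPM), 1.37-fold higher (counting interval 1.34 to 1.39). Itga6, which pairs with Itgb1 or Itgb4, was at 182.5 and 273.3 CPM (2937 and 4393 counts), 1.50-fold higher (counting interval 1.43 to 1.57). Itgb4, the hemidesmosome chain that pairs with Itga6 alone and links to keratin, was at 238.2 and 229.8 CPM (3832 and 3693 counts), a ratio of 0.965 whose counting interval of 0.922 to 1.01 includes 1. The PKCi library was thus higher for both alpha chains and close to the untreated library for Itgb4. Per length, Itga6 stood at 0.596 of Itgb4 in untreated cells (counting interval 0.568 to 0.625) and at 0.925 with PKCi (counting interval 0.885 to 0.966). By counts not divided by length, Itga6 was above Itgb4 with PKCi (4393 and 3693). Itga7, a muscle laminin receptor chain outside the 10, went the other way at 18.7 and 9.89 CPM (1.89-fold lower, counting interval 1.56 to 2.31).

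Laminin chain genes differed in direction. Of 11 listed 7 were measured, 5 above and 2 below a log2 ratio of 0, 1 of them past 2-fold upward and 0 downward, and their median was 0.37. Lama3, the alpha chain of the epithelial laminin that Itga3 and Itga6 bind, had 27 and 138 counts (5.12-fold higher, counting interval 3.37 to 8.04), and its partner Lamb3 had 9 and 34 (3.78-fold, counting interval 1.78 to 8.97). Lama5, at 536.7 and 712.5 CPM, and Lamb1, at 621.2 and 587.0 CPM, were far more abundant than these. All 8 genes of the hemidesmosome list, which also holds Itga6, Itgb4, Lama3 and Lamb3, were measured, 3 past 2-fold upward (Lama3, Col17a1 and Plec) and 0 downward, and their median was 0.99. That median was 0.83 with TPM scaling and 0.78 with a filter of 5 CPM, and under each of these 2 genes lay past 2-fold upward. Col17a1 and Lamb3, at 0.684 and 0.559 CPM untreated, passed the filter of 1 CPM only through the PKCi library, where they were higher. Their part in the count and the median is thus set by the filter. For the laminin and hemidesmosome lists alike, the shares over all measured genes were 6.53% past 2-fold upward and 5.13% downward. The plakin genes Plec and Dst, whose proteins join the receptor to keratin, were at 488.4 and 408.6 CPM untreated and 1107 and 811.0 CPM with PKCi, and Col17a1 had 11 and 49 counts.

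Among the RGD-binding members, both alpha chains were slightly higher and Itgb5 was lower. Itga5, the fibronectin receptor chain, was at 156.1 CPM without and 184.9 CPM with PKCi (2512 and 2972 counts), a ratio of 1.19 (counting interval 1.12 to 1.25). Itgav, which pairs with several beta chains, was at 241.8 and 275.8 CPM (3891 and 4432 counts), 1.14-fold higher (counting interval 1.09 to 1.19). Itgb5, a vitronectin receptor chain that pairs with Itgav, had 3376 counts (209.8 CPM) without PKCi and 1851 (115.2 CPM) with it, 1.82-fold lower (counting interval 1.72 to 1.93), just under the 2-fold size. Itgb3, another partner of Itgav outside the 10, was at 94.8 and 139.3 CPM (1.47-fold higher, counting interval 1.38 to 1.57). Itgb5 exceeded Itgb3 by 3.67 times per length in untreated cells (counting interval 3.46 to 3.91) and by 1.37 times with PKCi (counting interval 1.29 to 1.46). Of the summed TPM of the 5 beta chains that can pair with Itgav, Itgb5 made up 20.1% untreated and 10.6% with PKCi, and Itgb3 5.48% and 7.72%. Itgb8 and Itgb6, which bind latent TGF-beta together with Itgav, had 19 and 6 counts untreated and 3 and 2 with PKCi, 0.158-fold for Itgb8 (counting interval 0.0300 to 0.537). Itgb8 had a log2 ratio of −0.88 with the pseudocount of 1 CPM and of −2.16 with one of 0.1 CPM, past 2-fold lower.

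Ligands of the RGD-binding integrins, some of which bind through other sites, held the most unequal ratios of the lists. Of 17 listed 12 were measured, 2 past 2-fold upward and 4 downward, beside 6.53% and 5.13% of all measured genes. The median of the 12 was 0.35. Fibronectin (Fn1), the ligand of the Itga5 receptor, was at 3160 CPM without and 8918 CPM with PKCi (2.82-fold higher, counting interval 2.79 to 2.85). Osteopontin (Spp1) was at 2711 and 4025 CPM, and the 2 past 2-fold upward were Fn1 and Tgfb1 (96.9 and 212.4 CPM). The 4 lower ones were Ctgf (148.7 and 2.49 CPM), Cyr61 (709.1 and 38.4 CPM), Thbs1 (709.2 and 77.7 CPM) and Ltbp1, a binding protein of latent TGF-beta (472.0 and 112.6 CPM).

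Itgb1, the common partner of most of these alpha chains, was at 889.4 CPM without and 1020 CPM with PKCi (14311 and 16387 counts), a ratio of 1.15 (counting interval 1.12 to 1.17). The summed level of the 12 alpha chains that can pair with it was 943.0 TPM untreated and 1309 TPM with PKCi, against 707.8 and 816.1 TPM of Itgb1 itself. Itga3 alone made up 73.3% and 72.7% of that alpha sum. In untreated cells Itga3 and Itgb1 were near parity, with 0.977 Itga3 for each Itgb1 per length (counting interval 0.956 to 0.998), and with PKCi there were 1.17 (counting interval 1.14 to 1.19). The near parity rests on the listed lengths of 5710 and 4081 bases, as untreated counts were 19564 for Itga3 and 14311 for Itgb1. The counting interval does not cover the choice of lengths.

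Itgb7, a beta chain known from gut-homing lymphocytes, had 39 counts untreated (2.42 CPM) and 771 with PKCi (47.97 CPM), 19.8-fold higher (counting interval 14.35 to 28.05). It stood at rank 5 by log2 ratio (3.84), while Cxcl2 (55.9-fold) and Igfbp5 (29.7-fold), lower in rank, had larger plain folds. The known partners of Itgb7 are Itga4 and Itgae, and neither was measured. Itga4 had 0 counts in both libraries, and Itgae 11 untreated and 4 with PKCi (0.364-fold, counting interval 0.0846 to 1.23). Per length there were 5.86 Itgb7 transcripts for each of Itgae in untreated cells (counting interval 2.95 to 12.7) and 319 with PKCi (counting interval 124 to 1173). Itgb7 mRNA thus had a high ratio, at a level well under that of Itgb1, in a library with little mRNA of either partner chain. For each Itgb7 transcript there were 249 of Itgb1 per length untreated (counting interval 182 to 350.4) and 14.4 with PKCi (counting interval 13.4 to 15.5). As a share of all beta chain mRNA per length it was 0.264% untreated and 4.83% with PKCi.

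Of 13 listed leukocyte markers, 10 had 0 counts in both libraries, among them Ptprc, which marks leukocytes of all kinds, Cd3e, Cd4, Cd8a and the integrin chains Itgal, Itgam and Itgax. The summed level was 16.97 CPM without and 10.45 CPM with PKCi (1.62-fold lower, counting interval 1.33 to 1.98), nearly all of it from Lyz2 (133 and 50 counts) and the leukocyte chain Itgb2 (140 and 117 counts). The part of such cells in the Itgb7 difference was not tested beyond these values. Of the ligands of the Itgb7 receptors, Madcam1 had 0 counts in both libraries, Vcam1 was at 173.6 and 235.5 CPM and Cdh1 at 2.92 and 3.36 CPM.

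By TPM, Itgb1 and Itga3 led in both libraries and Itgb7, Itga2 and Itga1 came last in both. Untreated, Itgb1 (707.8 TPM) and Itga3 (691.6 TPM) led, followed by Itgb5 (191.8), Itgb4 (110.3), Itga5 (102.8), Itgav (73.1), Itga6 (65.7), Itgb7 (2.84), Itga2 (0.792) and Itga1 (0 TPM). With PKCi the order was Itga3 (951.3 TPM), Itgb1 (816.1), Itga5 (122.4), Itgb4 (107.0), Itgb5 (105.9), Itga6 (98.9), Itgav (83.8), Itgb7 (56.6), Itga2 (47.0) and Itga1 (0.0328 TPM). Itgb5 stood at place 3 untreated and 5 with PKCi, and Itga5 at 5 and 3. These places depend on the listed lengths, since by CPM Itga2 was above Itgb7 with PKCi (102.7 and 47.97 CPM). Beyond Itga1, which is at the limit of detection, the neighbours whose ratio per length had a counting interval that includes 1 were Itgb4 and Itgb5 in the PKCi library (1.01, counting interval 0.955 to 1.07), and spread between cultures is not covered. Over all 26 integrin subunit genes, 15 were measured, 7 had 0 counts in both libraries, and the 16 outside the chosen 10 had 6 measured, 0 of them past 2-fold in either direction. The shares over all measured genes were 6.53% upward and 5.13% downward.

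**Figure D3:**
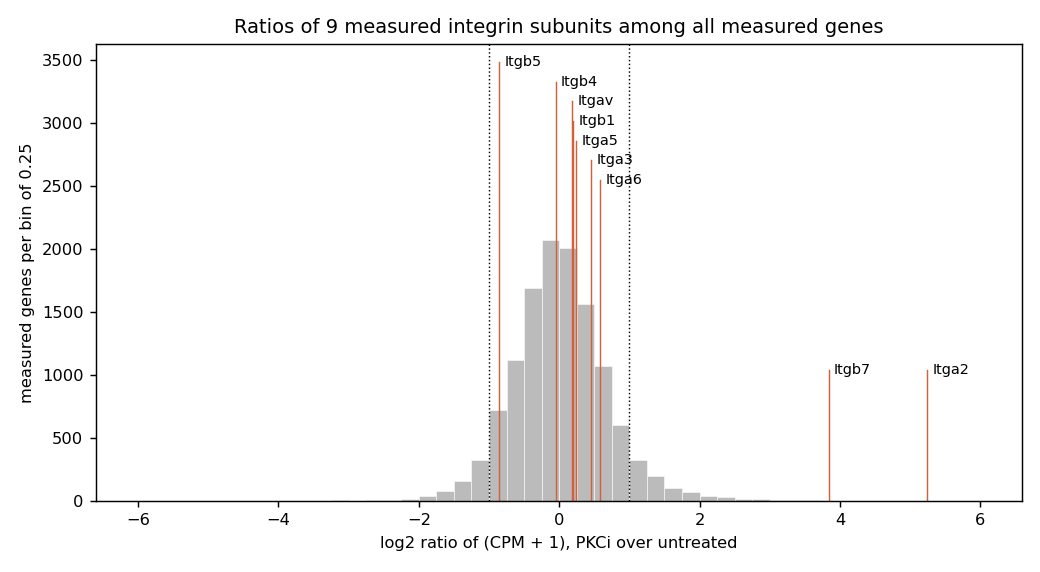
Histogram of the log2 ratio of CPM + 1 (PKCi over untreated) over 12273 measured genes, in bins of 0.25, with the 9 measured integrin subunits as orange lines whose height has no meaning. Dotted lines mark 2-fold. Itga2 (5.24) and Itgb7 (3.84) lie far in the right tail, Itgb5 (−0.86) near the 2-fold line on the left, and the other 6 between −0.05 and 0.58.

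On GRCm38, Itga2 (ENSMUSG00000015533) lies on chromosome 13 from 114833081 to 114932100 and Itga1 (ENSMUSG00000042284) from 114953096 to 115101964, both on the minus strand with 20995 bases between them. The neighbour on the other side, Mocs2, ends 805 bases from Itga2 on the opposite strand and was at 27.0 and 29.5 CPM (1.09-fold, counting interval 0.956 to 1.25). Itga2 was thus 59.0-fold higher between a gene with 3 counts or fewer and a gene with a ratio near 1. Farther out, Fst had 766 and 109 counts (7.02-fold lower, counting interval 5.74 to 8.66). Ndufs4, beyond Fst, had 827 and 598 counts (1.38-fold lower, counting interval 1.24 to 1.54). Pelo, which lies within the span of Itga1 on the same strand, had 163 and 103 counts (1.58-fold lower, counting interval 1.23 to 2.04). Itgb7 (ENSMUSG00000001281) lies on chromosome 15 from 102215995 to 102231944 on the minus strand, between Zfp740 (97.8 and 148.7 CPM, 1.52-fold) and the retinoic acid receptor gene Rarg (73.0 and 100.2 CPM, 1.37-fold). Zfp740 ends 388 bases from Itgb7 on the opposite strand, and whether the counting used strand is not given in the sources used here. Among the 3 nearest protein-coding genes on each side of Itgb7, Soat2, named after its values were seen, had 7 and 63 counts (9.01-fold higher, counting interval 4.13 to 23.3).

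The other 7 subunits lie elsewhere on the same build. Chromosome 11 holds Itga3 at 95044474 to 95076801 (minus strand) and Itgb4 at 115974709 to 116008412 (plus strand). Itgav and Itga6 lie on the plus strand of chromosome 2, from 83724397 to 83806916 and from 71745616 to 71858416. Itga5 shares chromosome 15 with Itgb7, at 103344286 to 103366763 (minus strand), 1112341 bases away. Itgb1 lies on chromosome 8 from 128685654 to 128733200 and Itgb5 on chromosome 16 from 33829665 to 33949338, both on the plus strand. Itga2 and Itga1 are thus the only adjacent pair of the 10.

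**Figure D4:**
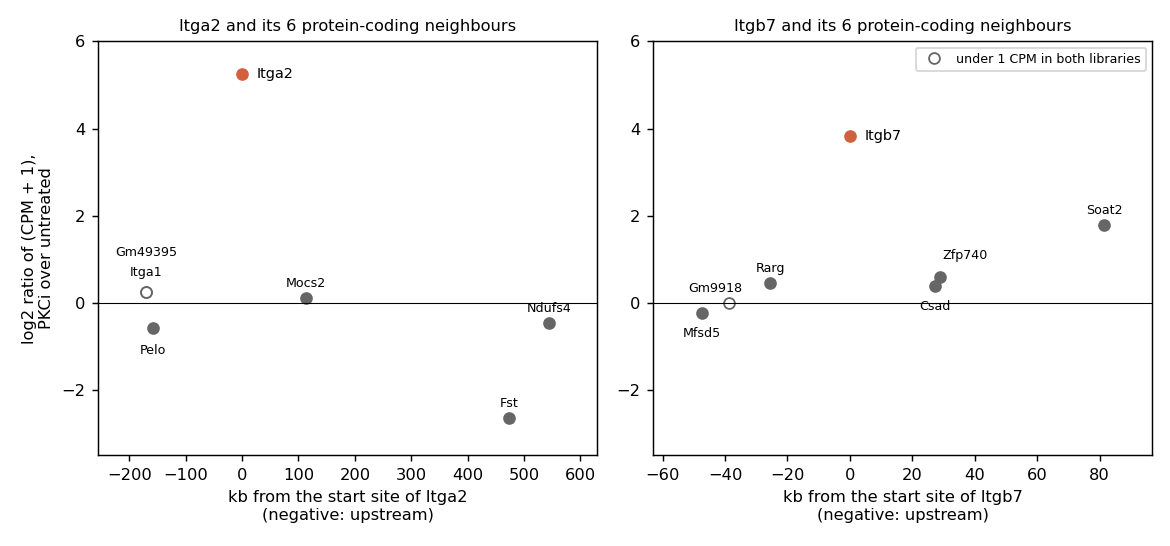
Log2 ratio of CPM + 1 (PKCi over untreated) of Itga2 (left) and Itgb7 (right), in orange, and of the 3 nearest protein-coding genes on each side, against the distance between start sites in kb, with open circles for genes under 1 CPM in both libraries. Itga2 and Itgb7 lie above all their neighbours, of which Soat2 (1.78) is the highest and Fst (−2.64) the lowest. Itga1 and Gm49395 fall on nearly the same point.

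The promoter windows of Itga2 and Itgb7 are printed because these genes carry the largest ratios, and that of Itga1 for comparison with its neighbour Itga2. Each runs from 250 bases before to 50 bases after the RefSeq start on GRCm38.p6, at chr13:114932051-114932350, chr13:115101915-115102214 and chr15:102231886-102232185, all on the minus strand and written along the gene. RefSeq windows were matched for 8 of the 10 subunits, with 9 windows because Itga3 has a pair of starts. Capitals mark matches, on either strand, to the motifs searched.
Itga2: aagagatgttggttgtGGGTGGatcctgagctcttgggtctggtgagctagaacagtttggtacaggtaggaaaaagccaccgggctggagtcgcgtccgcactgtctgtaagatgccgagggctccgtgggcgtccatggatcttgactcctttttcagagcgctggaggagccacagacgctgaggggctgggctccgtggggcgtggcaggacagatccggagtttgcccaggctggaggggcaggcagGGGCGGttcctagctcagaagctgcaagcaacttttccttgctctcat
Itga1: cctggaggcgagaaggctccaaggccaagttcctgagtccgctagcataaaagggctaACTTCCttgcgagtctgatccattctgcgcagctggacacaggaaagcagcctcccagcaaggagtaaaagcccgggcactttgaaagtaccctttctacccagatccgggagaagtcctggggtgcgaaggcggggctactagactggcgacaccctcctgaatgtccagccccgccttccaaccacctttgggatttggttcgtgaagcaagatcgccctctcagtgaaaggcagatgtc
Itgb7: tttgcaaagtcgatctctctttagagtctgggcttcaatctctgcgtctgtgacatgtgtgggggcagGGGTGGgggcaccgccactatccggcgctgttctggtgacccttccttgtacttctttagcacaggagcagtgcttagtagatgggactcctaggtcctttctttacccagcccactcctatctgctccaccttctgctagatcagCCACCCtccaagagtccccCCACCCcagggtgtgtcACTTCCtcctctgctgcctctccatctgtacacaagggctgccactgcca

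The motifs searched were the AP-1 motif TGANTCA, the CRE motif TGACGTCA, the TEAD motif GGAATG, the ETS motif GGAAGT, the GC box as GGGCGG, the CACCC box as CCACCC, the RUNX motif TGTGGT, the TATA box as TATAAA, and NF-kB and the CArG box by their consensus, and no matches overlap in the printed windows. CCACCC stood in 2 of the 9 windows, those of Itga2 (1 match) and Itgb7 (3 matches), and in 0 of the other 7. It stood in 31.5% of all 32851 RefSeq windows of the same length. No motif was tested against the ratios. GGGCGG, found in 35.7% of all windows, was in 7 of the 9, including Itga2 and not Itga1 or Itgb7. AP-1 and NF-kB matches, present in 7.81% and 8.46% of all windows, occurred in 1 window each, at the downstream and the upstream start of Itga3. The single TEAD match, a motif in 14.7% of all windows, was in Itgb1. ETS matches, present in 23.8% of all windows, were in 3 of the 9, those of Itga1, Itgav and Itgb7. The single RUNX match, a motif in 16.8% of all windows, was at the downstream start of Itga3. CRE, TATA box and CArG box matches, present in 1.79%, 13.6% and 1.63% of all windows, were in 0 of the 9. Itgb7 and the downstream start of Itga3 had 5 CpG dinucleotides in their windows, Itga1 12, Itga2 and Itga5 13, and Itgb5, Itgav, Itgb1 and the upstream start of Itga3 20 to 27, beside a median of 7 over all windows.

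Since the libraries give each gene 1 ratio, likeness of pattern was taken as the closeness of that log2 ratio over the 9818 protein-coding genes that reached 5 CPM in either library. Nearest to Itga2 were Csf3 (5.12), Acod1 (4.93) and Klf2 (4.21), and nearest to Itgb7 were Cxcl2 (3.81), Ier3 (3.66) and Igfbp5 (3.66). These are the genes next in rank (2 to 4 and 6 to 8), so the closeness follows from the high ranks and shows no shared pattern. Plain folds were less alike, at 59.0 for Itga2 and 57.5, 90.1 and 30.2 for its 3 genes. They were 19.8 for Itgb7 and 55.9, 12.85 and 29.7 for its 3 genes. Csf3 and Cxcl2 encode a growth factor and a chemokine of neutrophils, Acod1 the enzyme that makes itaconate, Klf2 a transcription factor, Ier3 an early response protein and Igfbp5 a binding protein of insulin-like growth factors. Itga2 had no neighbour within 0.1 on this scale, and its nearest, Csf3, was 0.12 away.

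Genes of the complex that joins integrins to actin had ratios spread around 0. Of 42 listed 40 were measured, 2 past 2-fold upward and 1 downward, beside 6.53% and 5.13% of all measured genes. The median of the 40 was 0.05. Lims2, an adaptor that binds integrin-linked kinase, had 29 and 295 counts (10.2-fold higher, counting interval 6.94 to 15.5). Its more abundant relative Lims1 was at 130.6 and 96.2 CPM (1.36-fold lower, counting interval 1.27 to 1.45). The kinase gene Ilk itself had 19 and 16 counts. Tns4, a tensin that binds beta chain tails and lacks the actin-binding part of its relatives, was at 188.9 CPM without and 996.9 CPM with PKCi (5.28-fold higher, counting interval 5.08 to 5.49). Tns1, a tensin that also binds actin, was at 26.2 and 5.48 CPM (4.78-fold lower, counting interval 3.79 to 6.08). Flna, the actin crosslinker filamin A, was at 840.1 and 1607 CPM (1.91-fold higher, counting interval 1.87 to 1.95). The members of this list named here were thus unequal, with tensin genes on both sides of 0.

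Of 13 listed membrane partners of integrins, all measured, 1 lay past 2-fold upward and 2 downward, beside 6.53% and 5.13% of all measured genes. The median of the 13 was 0.12. The tetraspanin Cd9 was at 219.5 and 659.9 CPM (3.01-fold higher, counting interval 2.89 to 3.12), and Tspan4 at 215.5 and 72.7 CPM (2.97-fold lower, counting interval 2.77 to 3.17). Cav1, the coat protein of caveolae, was at 637.4 and 273.7 CPM (2.33-fold lower, counting interval 2.25 to 2.41), and Cd47, an integrin-associated receptor of thrombospondin, at 148.0 and 243.8 CPM. Cd151, the tetraspanin partner of the laminin receptors, was at 149.8 and 189.3 CPM (1.26-fold higher, counting interval 1.20 to 1.33).

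**Figure D5:**
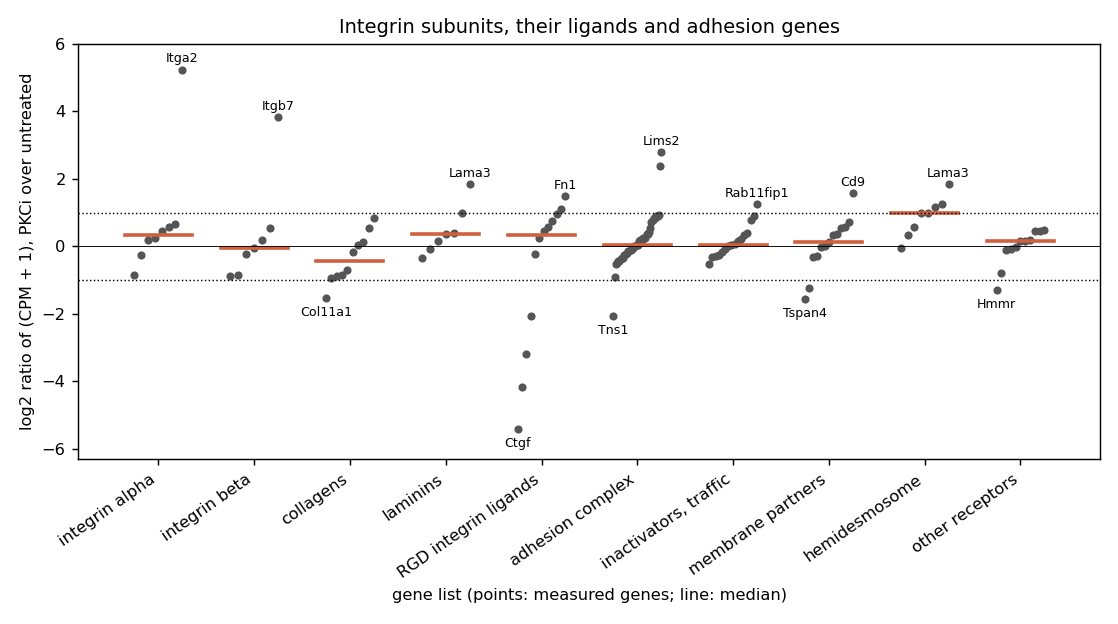
Log2 ratio of CPM + 1 (PKCi over untreated) of each measured gene in 10 lists of integrin subunits, ligands and adhesion genes, with the median of each list as an orange line, 2-fold as dotted lines, and the highest and lowest gene of each list named where it is past 2-fold. Medians lie between −0.43 for collagens and 0.99 for the hemidesmosome list, and the RGD integrin ligands span from −5.42 (Ctgf) to 1.50 (Fn1).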

How the data were processed

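Per the labels, RNA was purified on columns for a stranded, paired-end mRNA library, while a further protocol there names retinas, Trizol and another kit. The submitters' processing notes name HISAT2 2.0.5 and GRCm38 (mm10). How reads were counted, with which annotation and whether by strand, is not given in the sources used here. What the authors deposited are whole-number gene counts for each library, in a table named for FPKM whose 54532 rows sum to 16090186 and 16071153, and these were used as raw counts. All 10 subunits have the same position in GENCODE M21.

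Counts were scaled to the library total (CPM). Log2 ratios used a pseudocount of 1 CPM and a minimum of 1 CPM in at least 1 library. Folds have exact conditional binomial (Clopper-Pearson) 95% intervals, levels exact Poisson intervals. Since no molecular identifiers are named, reads are not independent molecules, and the intervals cover counting error only. TPM used the gene lengths in the table, whose definition is not given there. No listed symbol stood at more than 1 row. Of the genes first listed, 2 are not reported here and were left out of the counts, sums and medians of their lists, which can shift these. Subunits, lists and motifs were chosen with earlier results of these data known. Named were all 10 subunits, other measured integrin chains, from each list up to 4 genes with the log2 ratios farthest from 0, the nearest neighbours of Itga2 and Itgb7 and the 3 genes closest to each in ratio. Genes with further values were chosen for their role, and some that the rule names are not described. Alternatives were edgeR 4.0.16 TMM and DESeq2 1.42.0 size factors, TPM scaling, a pseudocount of 0.1 CPM, and no filter or one of 5 CPM. The procedure was tested on simulated counts. No per-sample column was left unassigned (0).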

Additional observations from a re-analysis of the deposited data

How the results depend on the processing

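With 1 library per group, no result here has a replicate to leave out, and no paired analysis was possible because the groups hold 1 library each. Under each of the 6 alternatives 2 of the measured chosen subunits lay past 2-fold upward and 0 downward. The log2 ratio of Itga2 ranged from 4.74 to 5.80 and that of Itgb7 from 3.83 to 4.25, and 86 of 86 alternative ratios of measured integrin genes moved by less than 0.5 of the width of their counting interval, which is wide for low genes such as Itgb8 (−0.88 and −2.16). Shares of all integrin subunit mRNA were less stable than these ratios. Without division by length, 18 shares of chosen subunits counted as moved and 2 as unmoved, so the shares depend on the listed lengths. In the PKCi library Itga2 then made up 2.52%, against 1.90% per length. Itgav went from 3.38% per length to 6.77% and Itga6 from 3.99% to 6.71%. Itgb7 fell from 2.28% to 1.18% and Itgb5 from 4.27% to 2.83%. With TPM scaling 1398 genes lay past 2-fold upward and 985 downward, against 802 and 630 without it, with 14174 genes past the filter. With a pseudocount of 0.1 CPM 1 integrin gene, Itgb8, lay past 2-fold downward, 4 collagen genes lay past it downward in place of 1 and 1 upward in place of 0, 2 laminin genes upward in place of 1, and 2 other matrix receptors downward in place of 1. Over all 12273 measured genes the same setting gave 1181 upward and 888 downward, in place of 802 and 630. The collagen median was 0.00 with no filter, where genes near 0 counts enter. Depth limits Itga1, Itga11, Itgae, Itgb6 and Itgb8, which have 20 counts or fewer in each library.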

Other observations

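Genes that inactivate integrins or carry them through endosomes were listed as well. Of 18 listed 16 were measured, 1 past 2-fold upward and 0 downward, beside 6.53% and 5.13% of all measured genes. The median log2 ratio of the 16 was 0.06. The recycling adaptor Rab11fip1 was at 21.6 CPM without and 52.9 CPM with PKCi (2.45-fold higher, counting interval 2.16 to 2.78), Cib1, which binds the tail of platelet integrin, at 32.4 and 61.0 CPM, and the early endosome gene Rab5a at 52.7 and 90.7 CPM. Kank1, which binds talin at the rim of adhesions, was at 19.8 and 13.6 CPM. The integrin inhibitors Sharpin and Itgb1bp1 were at 34.1 and 27.2 CPM untreated and 44.99 and 22.3 CPM with PKCi.

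Of 13 other matrix receptors 11 were measured, 0 past 2-fold upward and 1 downward, beside 6.53% and 5.13% of all measured genes. The median of the 11 was 0.16. The collagen receptor kinases Ddr1 and Ddr2, which need no integrin, were at 109.8 and 269.4 CPM untreated and 151.9 and 301.4 CPM with PKCi. Hmmr, a hyaluronan receptor that also acts on the mitotic spindle, was at 206.3 and 84.25 CPM (2.45-fold lower, counting interval 2.30 to 2.61). The syndecan Sdc1 was at 372.5 and 526.3 CPM and Sdc2 had 24 and 7 counts. Endothelial markers had 0 of 5 genes measured and summed to 8 and 10 counts.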
